A study of Mus musculus with 6 samples.

Results

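Lipid droplets are the stores of triglyceride in a hepatocyte, and the genes described here encode proteins that coat them, let them grow and break their fat down. They were taken by symbol from the deposited expression table, which holds 10 of them among 45777 genes: 4 perilipins (*Plin2*, *Plin3*, *Plin4* and *Plin5*), 2 CIDE proteins (*Cidec* and *Cideb*) and 4 genes of the adipose triglyceride lipase (ATGL) system (*Pnpla2*, *Abhd5*, *G0s2* and *Pnpla3*). All 10 passed the filter on low counts. The samples were livers of C57BL/6 males aged 8 weeks after a 24 h fast, from 3 WT mice (*Pak4* flox/flox, without Cre) and from 3 LKO mice, which carried *Pak4* flox/flox together with Alb-Cre. Cre came from the albumin promoter, which is active in hepatocytes, so that *Pak4* was targeted in these rather than in all liver cells, and the floxed alleles were shared by both groups. No group carried Cre with intact *Pak4*, and an effect of Cre itself cannot be told apart from the loss of *Pak4*.

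Fasting sends fatty acids from adipose tissue to the liver, where a part is stored as triglyceride in droplets before it is oxidized or secreted. Perilipins coat the droplet and govern the access of lipases, and CIDE proteins pass lipid between droplets and make them larger. ATGL, the product of *Pnpla2*, removes the first fatty acid from triglyceride. ABHD5 (also called CGI-58) is its coactivator, G0S2 its inhibitor, and PNPLA3 a related protein of the droplet surface that binds ABHD5.

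In LKO livers *Plin5* mRNA was 3.24-fold higher than in WT livers, whereas *Pnpla3* was 25.4-fold, *Cideb* 2.97-fold, *Abhd5* 2.13-fold, *Cidec* 1.96-fold, *Plin4* 1.83-fold and *Plin3* 1.58-fold lower. *Plin2*, *Pnpla2* and *G0s2* did not pass the test. Of the 10 genes, 1 was higher and 6 were lower in LKO livers at an adjusted p under 0.05 (quasi-likelihood test of edgeR, adjusted over 18636 genes by the Benjamini-Hochberg method), where 19.6% of all genes tested were higher and 20.5% were lower. The median log2 fold change was −0.77 over the 10 genes and −0.04 over all genes. The values below are CPM, read counts set relative to library size with the TMM scaling of edgeR, unless another scale is named.

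The genes lie on 8 chromosomes of GRCm38.p6. Of the perilipins, 3 are on the minus strand of chromosome 17, *Plin4* from 56100587 to 56109948, *Plin5* from 56111597 to 56117606 and *Plin3* from 56278962 to 56290511, and *Plin2* is on chromosome 4 (86626910 to 86670217, minus strand). *Cidec* is on chromosome 6 (113424634 to 113435760) and *Cideb* on chromosome 14 (55754052 to 55758424), both on the minus strand. *Pnpla2* is on chromosome 7 (141455188 to 141460743), *Abhd5* on chromosome 9 (122351616 to 122381524) and *Pnpla3* on chromosome 15 (84167776 to 84189521), all on the plus strand, and *G0s2* is on chromosome 1 (193272160 to 193273188, minus strand).

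The promoters of *Plin5*, the gene that rose, of *Pnpla3*, the gene with the largest fall, and of *Plin2*, the perilipin with the highest level, are printed to show the letters in front of these genes. They are RefSeq sequences of GRCm38.p6, from 250 bases before to 50 bases after the annotated start, read on the strand of the gene. Capitals mark matches to the motifs searched. The *Plin5* promoter is that of the first of its 2 annotated starts (chr17:56117499-56117798, minus strand), with AGGTCA in capitals.

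Plin5: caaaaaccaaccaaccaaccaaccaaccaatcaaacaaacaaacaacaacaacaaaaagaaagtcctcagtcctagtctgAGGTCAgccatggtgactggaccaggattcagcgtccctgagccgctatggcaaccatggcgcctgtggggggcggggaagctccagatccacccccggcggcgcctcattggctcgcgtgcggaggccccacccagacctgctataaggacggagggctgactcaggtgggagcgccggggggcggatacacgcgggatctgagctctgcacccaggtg

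The *Pnpla3* promoter lies at chr15:84167566-84167865 on the plus strand, with TGACGTCA, the full cAMP response element, in capitals.

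Pnpla3: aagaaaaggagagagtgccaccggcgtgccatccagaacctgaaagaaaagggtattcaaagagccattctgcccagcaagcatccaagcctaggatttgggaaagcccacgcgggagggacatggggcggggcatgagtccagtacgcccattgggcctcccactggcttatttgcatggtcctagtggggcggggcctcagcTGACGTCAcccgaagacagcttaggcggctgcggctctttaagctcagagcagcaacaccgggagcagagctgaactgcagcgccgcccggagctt

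The *Plin2* promoter lies at chr4:86670010-86670309 on the minus strand. Its first run of capitals is a match with 2 mismatches, on the opposite strand, to DR1, the form bound by PPAR and RXR. Its second is the E-box CACGTG.

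Plin2: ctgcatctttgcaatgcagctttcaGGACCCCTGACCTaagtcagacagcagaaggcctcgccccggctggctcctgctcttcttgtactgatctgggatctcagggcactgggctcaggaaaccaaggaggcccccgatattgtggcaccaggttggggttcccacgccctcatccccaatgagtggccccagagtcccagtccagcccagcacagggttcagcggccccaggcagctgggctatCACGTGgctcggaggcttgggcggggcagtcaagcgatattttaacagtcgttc

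DR1 was searched as 2 copies of AGGTCA with 1 base between them and up to 2 mismatches among the 12 fixed bases. The other motifs were the nuclear receptor half-site AGGTCA, the TATA box TATAAA, the E-box CACGTG, the cAMP response element TGACGTCA and the forkhead site GTAAACA, with no mismatch, and all were searched on both strands, so that AGGTCA can lie within a DR1 match, as it did in *Plin2*. All 10 genes were matched to the promoter table by symbol, with 12 promoters. DR1 was found before *Plin2* alone among the 10 genes and in 3.86% of all 32851 promoters. The *Plin2* match ran from base −225 to base −213 relative to the start and had 2 mismatches, the most allowed. CACGTG was found across the start of *Plin2* and in 7.15% of all promoters. TGACGTCA was found before *Pnpla3*, from base −46 to base −39, and in 1.79% of all promoters. AGGTCA was found in 3 of the 10 genes, *Plin2*, *Plin5* and *Abhd5*, and in 16.26% of all promoters, TATAAA in *Cideb* and in 13.62%, and GTAAACA in none of the 10 genes and in 3.65%. These matches are descriptions of the letters, and binding was not measured.

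The total counts were 45934632 to 55205564 in WT and 53936281 to 59576437 in LKO libraries, and the 10 most abundant genes took 16.2% to 17.3% of the counts in WT and 30.6% to 36.3% in LKO libraries. The TMM factors ran from 1.28 to 1.43 in WT and from 0.639 to 0.816 in LKO libraries. With total counts in their place the median log2 fold change of all genes moved to −0.90, with 6.26% of genes called higher and 51.4% called lower. *Pak4*, the targeted gene, had counts of 268, 210 and 271 (WT mice 1, 2 and 3) against 85, 52 and 149 (LKO mice 1, 2 and 3). In CPM it was at 3.63 ± 0.445 in WT and 2.21 ± 0.900 in LKO livers (mean ± SD, n = 3 each), with p = 0.2 in a two-sided exact permutation test, whose smallest p for 3 against 3 mice is 0.1. The log2 fold change of *Pak4* was −0.71 and did not pass the test (edgeR quasi-likelihood test, adjusted p = 0.10). LKO mouse 3, at 3.22 CPM, lay within the WT range, and by total counts or TPM every LKO mouse lay below every WT mouse. Bulk RNA cannot tell fewer cells of a type apart from less RNA per cell. The labels number the replicates within each genotype, and these are taken here as separate mice. The p-values rest on the spread between them, which edgeR estimates with information shared across genes.

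*Plin2* encodes the main coat protein of hepatocyte droplets. It stood at 296, 230 and 272 CPM in WT mice and at 246, 203 and 133 in LKO mice, so that LKO mouse 1 lay within the WT range and LKO mice 2 and 3 below it. Its log2 fold change was −0.46 ± 0.24 (SE), with an adjusted p of 0.16 by edgeR's quasi-likelihood test. By total counts the 3 LKO mice lay below the 3 WT mice and the log2 fold change was −1.31 (adjusted p = 0.0023), 0.41 below the median of all genes on that scale.

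*Plin5* encodes the perilipin of oxidative tissues, which binds ATGL and ABHD5 and holds droplets against mitochondria. It stood at 34.4, 28.3 and 26.4 CPM in WT mice and at 107, 78.2 and 103 in LKO mice. Every LKO mouse was above every WT mouse, as was the case for 26.1% of all genes tested. The log2 fold change was 1.69 ± 0.18 (SE; edgeR, adjusted p = 3.9e-04). It was 0.85 by total counts (adjusted p = 0.013), where *Plin5* alone among the 10 genes was called higher and 7 were called lower. On that scale 6.26% of all genes tested were called higher and 51.4% lower. In TPM, which the authors scaled to one sum per mouse, *Plin5* overlapped between the genotypes, at 34.5, 30.3 and 25.0 in WT and 39.7, 21.6 and 39.6 in LKO mice, and limma on log2(TPM + 1) gave 0.12 (adjusted p = 0.68). Relative to the median of all genes on each scale, *Plin5* was higher by 0.91 to 1.75 log2 units under 7 scalings. These are not independent, since scalings with 1 factor per library shift all genes nearly alike (1.73 with TMM and 1.75 by total counts). The lowest value, 0.91, was that of log2(TPM + 1).

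*Plin3* encodes a perilipin that moves from the cytosol onto young droplets. It stood at 32.6, 31.5 and 30.1 CPM in WT and at 15.8, 19.0 and 24.5 in LKO mice, with no overlap. Its log2 fold change was −0.66 ± 0.18 (SE; edgeR, adjusted p = 0.018), and the call was lost without WT mouse 1 (adjusted p = 0.062) or without LKO mouse 2 (0.058). *Plin4*, which coats young droplets and is best known from adipocytes, stood at 22.2, 17.7 and 18.8 CPM in WT and at 14.2, 11.6 and 6.38 in LKO mice. The LKO mice again lay below the WT mice, with mouse 3 the lowest. Its log2 fold change was −0.87 ± 0.27 (SE; edgeR, adjusted p = 0.034). The call for *Plin4* was lost with upper-quartile scaling (0.060), with the correction for gene length (0.097), with this correction and the replicate block together (0.059) and without any 1 of WT mice 1, 2 and 3 or LKO mouse 2 (0.059 to 0.11). *Plin4* and *Plin5* are neighbours on the minus strand of chromosome 17, with 1648 bases between them, and they moved in opposite directions.

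**Figure D1:**
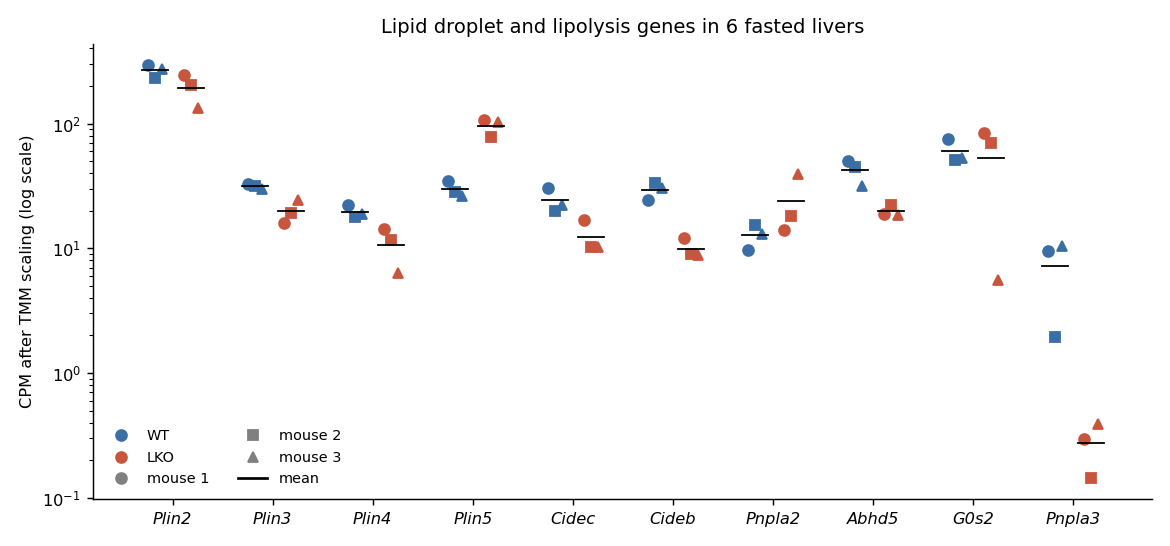
CPM after TMM scaling (log axis) of the 10 genes in each mouse, with WT in blue, LKO in red, 1 marker shape per mouse number and black bars for the means. The 3 LKO mice lie above the WT mice for *Plin5*, from 78.2 to 107 against 26.4 to 34.4, below them for 6 genes, and LKO mouse 3 stands apart for *G0s2* and *Pnpla2*.

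The make-up of perilipin mRNA was computed within each mouse as the share of each gene in the summed TPM of the 4 perilipins, which takes gene length into account and does not depend on the scaling between libraries. *Plin5* made up 8.94%, 9.20% and 7.68% of it in the WT livers, against 27.3%, 24.6% and 37.8% in the LKO livers. The lowest LKO share was above the highest WT share. *Plin2* made up 81.4% ± 1.55 of perilipin TPM in WT and 63.3% ± 8.78 in LKO livers (mean ± SD, n = 3 each) and was the largest share in every mouse. *Plin3* made up 7.65% to 9.27% in WT and 3.69% to 8.25% in LKO livers, with overlap, and *Plin4* made up 1.71% ± 0.0975 and 0.972% ± 0.186 without overlap. These shares are given with no test.

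**Figure D2:**
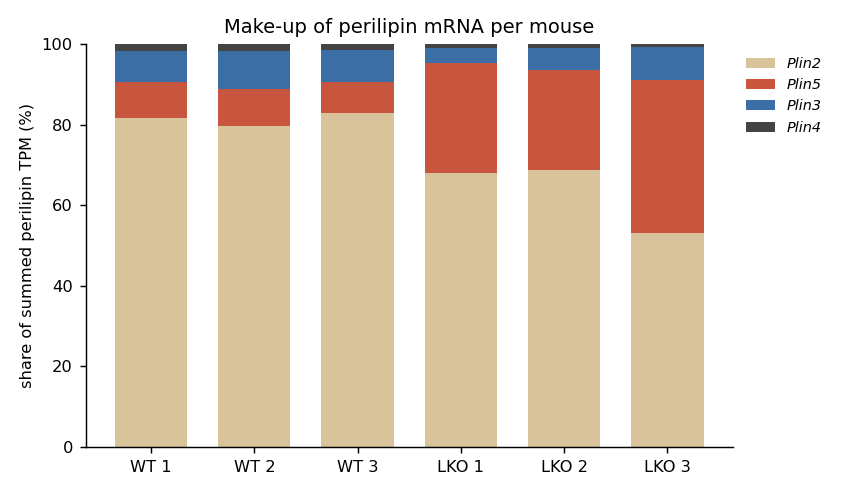
Share of each perilipin in the summed TPM of *Plin2*, *Plin3*, *Plin4* and *Plin5* (in %), with 1 stacked bar per mouse. The *Plin5* segment spans 7.68% to 9.20% in the 3 WT bars and 24.6% to 37.8% in the 3 LKO bars.

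Both CIDE genes fell in LKO livers. *Cideb* encodes the CIDE protein of hepatocytes, which also loads lipid onto very low density lipoprotein. It stood at 24.6, 33.6 and 30.3 CPM in WT and at 12.04, 8.92 and 8.82 in LKO mice. The highest LKO value was below the lowest WT value, and the log2 fold change was −1.57 ± 0.19 (SE; edgeR, adjusted p = 6.0e-04). *Cideb* was called lower under the reported setting and all 18 alternatives. Its 3′ part shares 1583 bases with *Nop9*, whose counts were 934 to 1305 in WT and 410 to 573 in LKO mice, and since the use of strand in counting is not stated in the sources used here, the reads of both genes may not be fully separated. *Cidec* likewise shares 1256 bases with *Gm52871* (150 to 198 counts in WT, 86 to 94 in LKO mice) and *Pnpla3* shares 643 bases with *Gm20369* (18 to 22 and 7 to 9 counts).

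*Cidec* encodes the protein also known as FSP27, which makes large droplets and is abundant in fat and in fatty liver. It stood at 30.4, 19.98 and 22.2 CPM in WT and at 16.7, 10.2 and 10.2 in LKO mice. The groups did not overlap, WT mouse 1 was the highest, and the log2 fold change was −0.97 ± 0.25 (SE; edgeR, adjusted p = 0.015). Without WT mouse 1 or LKO mouse 2 the call was lost (adjusted p = 0.065 and 0.059). In all, 6 genes lay below the WT range in every LKO mouse, against 27.9% of all genes tested.

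In the ATGL system, the coactivator and the PNPLA3 gene fell, and neither the lipase nor its inhibitor passed the test. *Abhd5* stood at 49.9, 45.1 and 31.3 CPM in WT and at 18.7, 22.1 and 18.5 in LKO mice. There was no overlap, the log2 fold change was −1.09 ± 0.19 (SE; edgeR, adjusted p = 0.0031), and the call held under all 18 alternatives.

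*Pnpla2* itself stood at 9.70, 15.2 and 13.1 CPM in WT and at 14.1, 18.3 and 39.7 in LKO mice. LKO mouse 1 lay within the WT range, LKO mouse 2 just above it and LKO mouse 3 far above it. The log2 fold change was 0.92 ± 0.37 (SE; edgeR, adjusted p = 0.078), and 0.35 without LKO mouse 3. It was called higher by edgeR's exactTest (adjusted p = 0.043), by DESeq2 (0.022) and without LKO mouse 1 (0.026). Its direction turned with the scale, from 0.06 by total counts to −0.64 on log2(TPM + 1). Relative to the median of all genes it was higher by 0.15 to 1.03 log2 units under 7 scalings. Here too, scalings with 1 factor per library gave nearly the same value (0.96 with TMM and 0.96 by total counts).

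*G0s2* stood at 75.7, 51.2 and 53.2 CPM in WT and at 84.1, 69.8 and 5.60 in LKO mice. LKO mouse 1 lay above the WT range, LKO mouse 2 within it, and LKO mouse 3 was far below every other mouse. The log2 fold change was −0.17 ± 0.72 (SE; edgeR, adjusted p = 0.87) and turned to 0.36 without LKO mouse 3 (adjusted p = 0.20). It moved to −0.66 with the correction for gene length, to −1.05 by total counts and to −2.34 on log2(TPM + 1), where limma called *G0s2* lower (adjusted p = 0.041). LKO mouse 3 thus held the lowest *G0s2* and the highest *Pnpla2* of the 6 mice, with 259 counts of *G0s2* against 2436 to 5644 in the others and 1834 counts of *Pnpla2* against 619 to 996. It was also the LKO mouse with the highest *Pak4*, and the part of these differences in one another was not tested.

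*Pnpla3*, a gene that rises with feeding and falls with fasting, had 703, 128 and 685 counts in WT and 13, 5 and 18 in LKO mice. In CPM these were 9.43, 1.96 and 10.4 against 0.295, 0.143 and 0.389. WT mouse 2 was well below the other WT mice and still above every LKO mouse. The log2 fold change was −4.67 ± 0.69 (SE; edgeR, adjusted p = 0.0013), it was −5.14 without WT mouse 2, and the call held under the 17 alternatives that gave a value. *Pnpla5*, its neighbour 44600 bases away and another lipase of the same family, had 272, 13 and 85 counts in WT mice and 0 in each LKO mouse, so that the filter left it untested.

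Ratios of read counts of gene pairs within a library do not depend on the scaling between libraries, and 8 pairs were compared with two-sided exact permutation tests, which cannot give a p under 0.1. In 4 of them the groups did not overlap (exact permutation test, p = 0.1, adjusted p = 0.20 over the 8 pairs). The share of all gene pairs without overlap was not computed. Of single genes tested, 26.1% lay above and 27.9% below the WT range in every LKO mouse. *Plin5* over *Plin2* was 0.116, 0.123 and 0.0969 in WT and 0.434, 0.386 and 0.779 in LKO mice, a log2 difference of 2.19. *Abhd5* over *Pnpla2* was 5.14, 2.96 and 2.38 in WT and 1.33, 1.21 and 0.467 in LKO mice, a log2 difference of −1.86, and −1.38 without LKO mouse 3. Every LKO mouse was below every WT mouse in this ratio of the coactivator to the lipase, with LKO mouse 3 the lowest. *Pnpla3* over *Pnpla2* differed by −5.30 and *Cidec* over *Plin2* by −0.49 log2 units.

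The other 4 pairs overlapped between the genotypes. *G0s2* over *Pnpla2*, the inhibitor over the lipase, was 7.81, 3.36 and 4.05 in WT and 5.98, 3.82 and 0.141 in LKO mice (log2 difference −1.68, exact permutation test p = 0.5, adjusted p = 0.67). Without LKO mouse 3 the difference was 0.01, so that it rested on that mouse. *Abhd5* over *G0s2* differed by −0.18 (p = 1, exact) and by −1.40 without LKO mouse 3. *Plin3* over *Plin2* differed by −0.19 and *Cidec* over *Cideb* by 0.59 log2 units (adjusted p = 0.80 and 0.48, exact permutation tests).

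**Figure D3:**
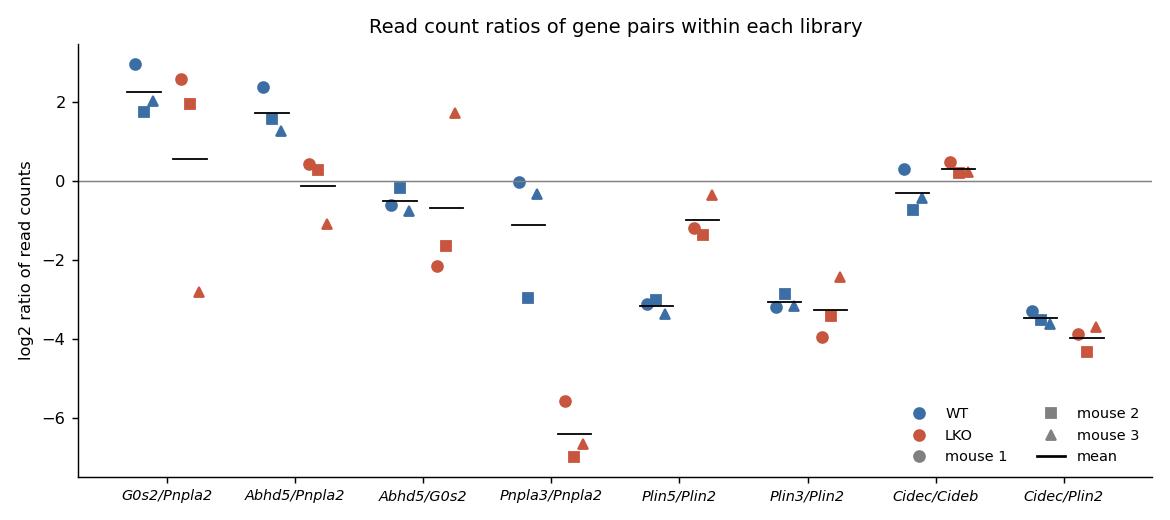
The log2 ratio of read counts of 8 gene pairs within each library, with WT in blue, LKO in red, 1 marker shape per mouse number and black bars for the means. *Plin5*/*Plin2* is higher in each of the 3 LKO mice, *Abhd5*/*Pnpla2*, *Pnpla3*/*Pnpla2* and *Cidec*/*Plin2* are lower, and LKO mouse 3 lies far from the other LKO mice for both pairs with *G0s2*.

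Levels of different genes were compared in TPM, which is per length. In WT livers *Plin2* was highest at 283 ± 28.3 TPM (mean ± SD, n = 3), followed by *G0s2* at 140 ± 31.4 and *Cideb* at 49.5 ± 9.73. *Plin5*, *Plin3*, *Abhd5* and *Cidec* came next, from 29.9 down to 26.2, and each overlapped with its neighbour in this order. *Pnpla2* (9.47 ± 2.50), *Plin4* (5.93 ± 0.768) and *Pnpla3* (3.11 ± 1.91) were lowest and did not overlap with their neighbours.

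In LKO livers *Plin2* was again highest at 71.7 ± 23.7 TPM, but it overlapped with *G0s2* (41.1 ± 34.2), and *G0s2* with *Plin5* (33.6 ± 10.4). *Pnpla2*, *Plin3*, *Cideb*, *Cidec* and *Abhd5* followed between 6.35 and 4.18, each overlapping with the next. *Cideb* moved from rank 3 in WT to rank 6, and *Plin5* from rank 4 to rank 3. *Pnpla3* stayed last at 0.0388 ± 0.0228 TPM. TPM of the genes other than *Plin5* were lower in LKO livers on average, and the plot of fold changes under 4 scalings sets TPM beside the other scales.

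**Figure D4:**
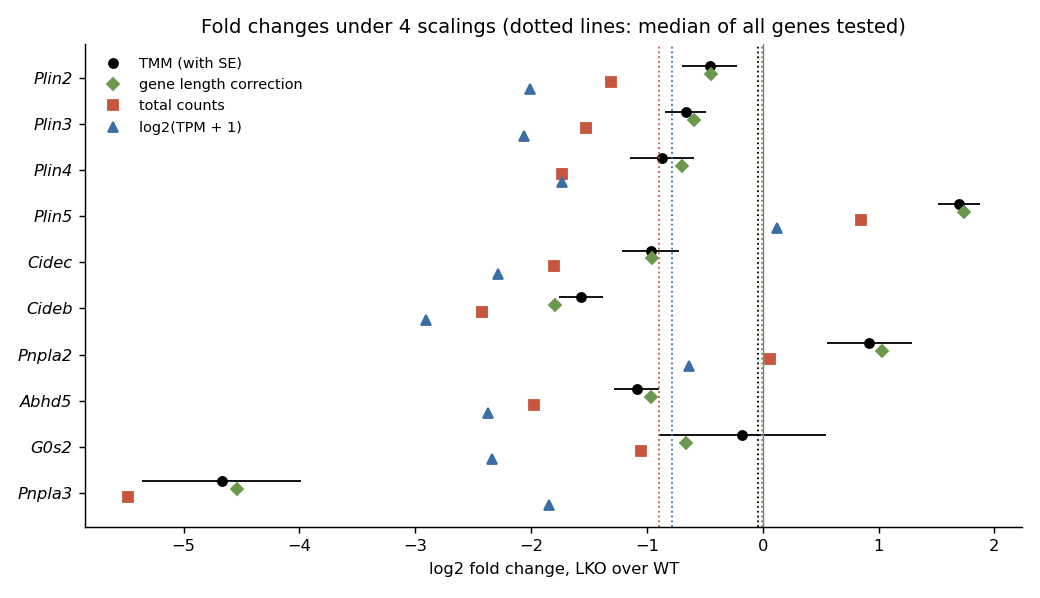
Fold changes (log2, LKO over WT) of the 10 genes under TMM (black, bars are the SE), the correction for gene length (green), total counts (red) and log2(TPM + 1) (blue), with dotted lines at the median of all genes on each scale. *Plin5* lies right of the median line of every scale, and *Pnpla2* lies on both sides of 0, from 1.03 with the length correction to −0.64 on log2(TPM + 1).

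Among other droplet proteins, 17 of 19 listed genes were tested, and 7 were lower and 0 higher in LKO livers. Over all genes tested, 20.5% were lower and 19.6% higher, the shares to set beside the counts of this list and those below. The 0 higher calls held by edgeR's exactTest and DESeq2 and at an unadjusted p under 0.05 in edgeR's quasi-likelihood test. The median log2 fold change was −0.39. The falls were led by *Mettl7b*, a droplet methyltransferase, at 279 ± 24.5 CPM in WT and 74.9 ± 16.2 in LKO livers (log2 fold change −1.90). *Bscl2*, which encodes seipin, the protein at the site where droplets bud from the endoplasmic reticulum, was at 21.8 ± 1.31 and 5.99 ± 0.931 CPM (−1.86). *Fitm1*, which takes part in droplet budding, differed by −1.69 (adjusted p = 0.043) and lost its call without WT mouse 1 (0.12), WT mouse 3 (0.099) or LKO mouse 2 (0.12). *Plin1*, the perilipin of adipocytes, had 0 counts in all 6 mice, and *Cidea* had 43, 16 and 31 counts in WT mice and 0 in each LKO mouse and was not tested.

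Among other lipases, 10 of 14 tested genes were lower and 2 higher (20.5% and 19.6% of all genes), with a median log2 fold change of −0.90. The 2 higher genes were *Pnpla8* (log2 fold change 1.20, edgeR, adjusted p = 8.0e-04) and *Aadac* (1.00, adjusted p = 0.012). Under 7 scalings these ran from −0.29 to 1.36 and from −0.59 to 1.08. *Ces1d*, a carboxylesterase that hydrolyses stored triglyceride, was at 1329, 535 and 857 CPM in WT and 364, 204 and 191 in LKO mice (log2 fold change −1.84, edgeR, adjusted p = 0.0058), and *Ces1f* and *Ces1g* differed by −1.71 and −1.39. These carboxylesterases are related genes of 1 cluster, and whether reads were split among them was not examined. *Lipe*, hormone-sensitive lipase, differed by −0.80 (adjusted p = 0.032), and its call was lost under 5 of the 6 omissions of 1 mouse (0.058 to 0.12). *Mgll*, monoacylglycerol lipase, differed by −0.82 and did not pass the test (adjusted p = 0.15).

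Among 11 other regulators of ATGL, 5 were lower and 3 higher (20.5% and 19.6% of all genes), with a median of −0.27. *Prkaca* encodes the alpha catalytic subunit of protein kinase A. It was at 14.4 ± 4.72 CPM in WT and 4.54 ± 0.636 in LKO livers (log2 fold change −1.66). *Prkacb*, of the beta catalytic subunit, was at 37.9 ± 2.33 and 32.0 ± 2.83 CPM. It differed by −0.25 and did not pass the test (edgeR, adjusted p = 0.18). *Serpinf1*, the secreted ATGL-binding factor PEDF, differed by −1.18. *Copb1*, a coat protein of the vesicles that bring ATGL to droplets, differed by 1.20 and *Hilpda*, a peptide inhibitor of ATGL, by 1.01 (1.85 ± 0.315 against 3.72 ± 0.501 CPM, adjusted p = 0.011), and both turned negative on log2(TPM + 1), to −0.35 and −0.39. *Hilpda* was not called by total counts (0.14) or with the correction for gene length (0.67, adjusted p = 0.065).

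Of 12 genes of lysosomal lipolysis, 5 were lower and 2 higher (20.5% and 19.6% of all genes), with a median of −0.45. *Lipa*, lysosomal acid lipase, was at 254, 155 and 168 CPM in WT and 112, 87.1 and 80.8 in LKO mice (log2 fold change −1.04, edgeR, adjusted p = 0.0077). *Npc2*, which carries cholesterol out of lysosomes, differed by −0.88. *Lamp2*, of the lysosomal membrane, differed by 1.23 and by −0.35 on log2(TPM + 1).

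Of 8 transcription factors known to act on droplet genes, 4 were lower and 0 higher by edgeR's quasi-likelihood test (20.5% and 19.6% of all genes). Their median was −0.54. The higher calls numbered 0 by exactTest and 1 by DESeq2, and 1 gene was higher at an unadjusted p under 0.05, *Foxo1* in both cases. *Srebf1*, the factor of lipid synthesis that also drives *Pnpla3*, was at 98.9, 69.8 and 186 CPM in WT and 11.5, 10.9 and 8.89 in LKO mice (log2 fold change −3.50, edgeR, adjusted p = 3.7e-04). *Pparg*, the factor of fat storage, differed by −1.54, *Mlxipl*, which encodes the glucose-responsive factor ChREBP, by −1.40, and *Ppara*, the factor of the fasting response, by −1.12 (208.6 ± 69.4 against 95.7 ± 11.2 CPM, adjusted p = 0.0069). These 4 were lower under all 7 scalings.

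*Foxo1*, which drives *Pnpla2* in fasting, was at 10.6, 11.8 and 14.9 CPM in WT and 14.0, 15.9 and 38.0 in LKO mice (log2 fold change 0.87, edgeR, adjusted p = 0.091). As with *Pnpla2*, LKO mouse 3 stood far above the others, and without it the log2 fold change was 0.27. *Creb1*, *Creb3l3* and *Nr1h3* differed by 0.04, 0.09 and 0.17 and turned negative by total counts, to −0.82, −0.77 and −0.71. By total counts 16, 12, 8, 9 and 7 genes of the 5 lists were lower in the order given here and 0 were higher in each (edgeR, also 0 at an unadjusted p under 0.05), against the 51.4% of all genes called lower on that scale.

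**Figure D5:**
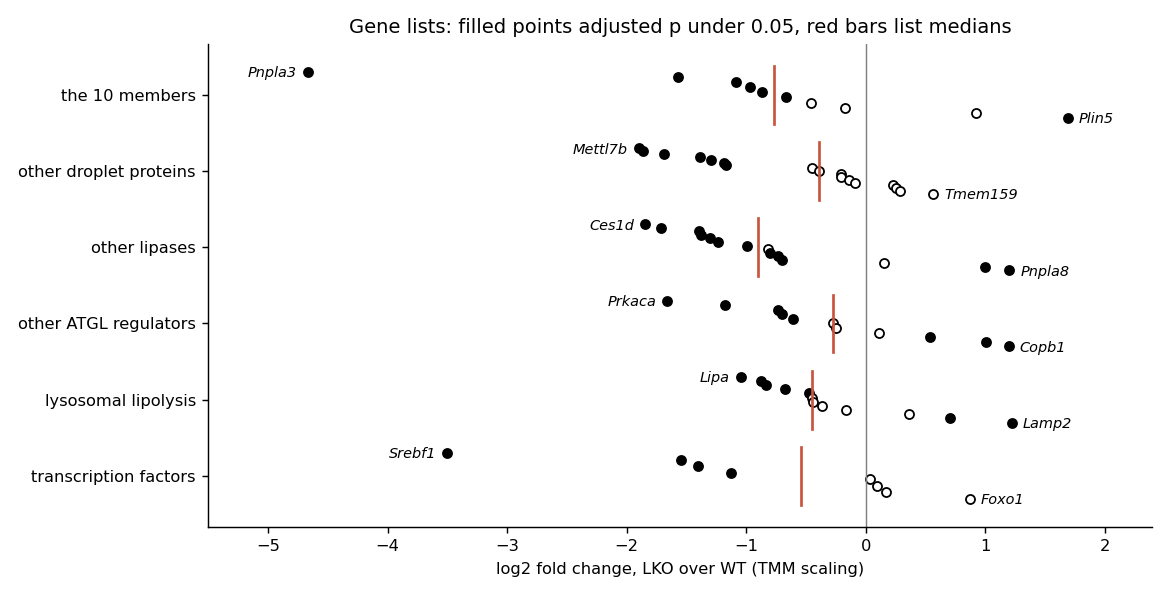
Fold changes (log2, LKO over WT, after TMM scaling) of each tested gene of the 10 members and 5 further lists, filled where the adjusted p is under 0.05, with red bars at the list medians and the lowest and highest gene of each list named. The medians run from −0.90 for other lipases to −0.27 for other ATGL regulators.

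Markers of liver cell types were read from lists of 5 to 8 genes, as summed CPM and with calls after TMM scaling. After that scaling, 19.6% of all genes tested were called higher and 20.5% lower. A sum follows the most abundant genes of its list. The 8 hepatocyte markers summed to 43931 to 47398 in WT and 108237 to 130798 in LKO livers, with 3 higher and 1 lower. *Alb* had the largest part in this rise, from a mean of 21079 to 69388 CPM, whereas *Ttr* fell from 2101 to 825. Adipocyte markers summed to 1.51 to 3.54 in WT and 0.151 to 0.750 in LKO livers, with *Plin1* and *Lep* at 0 counts in all 6 mice, *Adipoq* at 0 to 4 counts and *Retn* at 0 in all but WT mouse 1, which had 16. The other adipocyte markers moved with *Cidec* and *Plin4*, genes that fat cells also make. *Cfd*, the one adipocyte marker tested, had 205, 83 and 84 counts in WT and 30, 26 and 7 in LKO mice and was called lower (log2 fold change −1.76, edgeR, adjusted p = 0.039), and *Cidea* was detected in WT mice alone, as given above. Stellate cell markers, of a droplet-rich cell type that makes *Plin2* too, summed to 215 to 252 in WT and 550 to 814 in LKO livers, with 3 of 7 higher. *Dcn* carried most of this sum in LKO livers, with means of 116 CPM in WT and 505 in LKO livers. Kupffer cell markers summed to 215 to 332 and 385 to 764 (3 of 6 higher, 1 lower), endothelial markers to 235 to 284 and 408 to 438 (4 of 6 higher), neutrophil markers to 0.885 to 6.04 and 13.1 to 27.7 (3 of 3 tested higher) and erythroid markers to 192 to 324 and 879 to 1634 (2 of 5 higher, 1 lower). The erythroid sum rested most on *Hbb-bs*, with means of 120 CPM in WT and 897 in LKO livers. Cholangiocyte markers summed to 31.3 to 48.8 and 12.9 to 27.8 (1 of 3 tested lower) and lymphocyte markers to 2.94 to 4.34 and 1.20 to 1.97 (1 of 5 lower). By total counts the calls were 3 higher and 2 lower for hepatocyte markers, 2 and 2 for stellate cell, 1 and 2 for Kupffer cell, 2 and 2 for endothelial, 1 and 0 for neutrophil and 2 and 1 for erythroid markers. On that scale 0 adipocyte, 0 cholangiocyte and 0 lymphocyte markers were higher, and 1, 1 and 2 were lower. Of all genes tested, 6.26% were called higher and 51.4% lower by total counts. The part of these shifts in the differences of the droplet genes was not tested.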

How the data were processed

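Liver RNA of 3 WT and 3 LKO mice was sequenced with 1 library per mouse, and the labelled genotype set the groups. The authors deposited 1 table with read counts per gene, not normalized, and with FPKM and TPM, made with StringTie on mm10. The submitters' processing notes name bcl2fastq 2.20.0, FastQC 0.11.7, HISAT2 2.1.0, Bowtie2 2.3.4.1 and StringTie 2.1.3b. The labels name an mRNA kit and the methods a total RNA kit. StringTie estimates its counts from coverage. Coordinates are those of RefSeq GRCm38.p6, to which 45679 of 45777 gene IDs matched.

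A gene was tested if it had at most 1 zero count in the 6 mice, which held for 18636 genes (13858 protein-coding). After TMM scaling, genotypes were compared in R 4.3.3 with edgeR 4.0.16 (quasi-likelihood, two-sided, Benjamini-Hochberg over all genes). Alternatives were scaling by DESeq2 size factors, by the upper quartile or by total counts, the exactTest of edgeR, DESeq2 1.42.0, TMM from protein-coding genes, limma 3.58.1 on log2(TPM + 1) with a pseudocount of 1, no filter, a filter of 10 counts in every mouse, the replicate number as a block, gene length correction (lowess, span 0.3, on the ratio of count to FPKM), both together, and leaving out each mouse. Single values were compared with two-sided exact permutation tests. On simulated counts for 18433 genes, of which 100 were raised and 100 lowered, the main test recovered 100 and 100 and made 7 false calls. The median log2 fold change was 2.00 for the raised and −2.02 for the lowered genes. Recovery of smaller fold changes, or with as large a share of genes differing as was called here, was not tested.

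The genes and the lists were chosen with earlier results of these data known. Named are all 10 genes, *Pak4*, the 8 transcription factors, *Plin1*, *Cidea*, *Hilpda*, *Lipe*, *Mgll*, *Lipa* and *Ces1d*, and from each of the other 4 lists the 3 called genes with the largest change among those with at least 1 CPM on average and WT and LKO ranges apart. *Pnpla5*, *Nop9*, *Prkacb*, *Pnpla8*, *Aadac* and the marker genes were named beside results they touch. Protein sequences were not used here.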

Additional observations from a re-analysis of the deposited data

How the results depend on the processing

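*Cideb* and *Abhd5* kept their direction and call under all 18 alternatives and *Pnpla3* under the 17 that gave a value, since the filter of 10 counts in every mouse leaves *Pnpla3* out. The lower calls among the 10 genes numbered 6 in the reported fit and between 3 and 6 when 1 mouse was left out. They numbered 3 without WT mouse 1 and 3 without LKO mouse 2. Over all 18636 genes, lower calls also fell, from 3815 to 2855 without WT mouse 1 and to 2976 without LKO mouse 2. The number of higher calls among the 10 genes ran from 1 to 2 when 1 mouse was left out. Higher calls numbered 2 with edgeR's exactTest, 2 with DESeq2, 2 with the replicate block and gene length correction together, where *Pnpla2* joined *Plin5*, and 0 with limma on log2(TPM + 1). *Pnpla2* reversed to −0.64 on log2(TPM + 1), and *G0s2*, which ran from −0.67 to 0.36 without 1 mouse, reversed to 0.03 without WT mouse 1 and to 0.36 without LKO mouse 3. By total counts the droplet proteins had 16 lower calls, the other lipases 0 higher, the other ATGL regulators 0 higher and 8 lower, lysosomal lipolysis 0 higher and 9 lower, and the transcription factors 7 lower. *Pak4* differed by −0.71 in the reported fit, without a call (edgeR, adjusted p = 0.10), and was called in 3 of 19 settings. It differed by −1.54 by total counts and −1.19 on log2(TPM + 1), both called. The medians of all genes on these scales were −0.90 and −0.79. Without 1 mouse, *Pak4* differed by −1.08 to −0.49 and was called without LKO mouse 3. By FPKM, 2 genes stood at another rank than by TPM. Over all genes, the reported fit called 3661 higher and 3815 lower, total counts 1167 and 9575, and limma on log2(TPM + 1) 453 and 13322. Apart from these changes of scale, the causes were not tested.

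Same-numbered mice did not deviate together (r across genes of 0.00, −0.04 and −0.06, where genes are not independent replicates). These values gave no sign that the numbers pair the mice, but with 3 mice per genotype they cannot exclude it. *G0s2* moved to −0.74 with the replicate block and to −1.20 with the block and the gene length correction together, without a call, and *Plin4* lost its call with both together (adjusted p = 0.059). With the replicate block, 6431 genes were called in place of 7476, *Plin5* differed by 1.69, and the same 1 higher and 6 lower calls were made among the 10 genes. With 3 mice per genotype, the exact tests of single ratios cannot give a p under 0.1, and the low counts of *Pnpla3* in LKO mice (5 to 18) limit the precision of its fold change.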
